A study of Mus musculus with 43 samples.

Results

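Autogramin-2 was added to 4 µM regorafenib in primary mouse colon fibroblasts, and the 4 libraries that received both compounds (R4A1) were set against the 4 libraries of the same fibroblast lines with 4 µM regorafenib alone (R4). These 8 libraries are 8 of the 19 fibroblast libraries and of the 43 libraries of the whole series, and they were found through the library names in the labels. The lines, M3, M3(2), M1(2) and M11, were grown from colon tissue of wild-type C57B/6 mice, each line from an individual mouse, and are primary cultures rather than clones. Ages and sexes were not used. Every group shared the DMSO vehicle and was treated for 7 days from replating, with 4 µM regorafenib in R4, 4 µM regorafenib and 1 µM autogramin-2 in R4A1, vehicle alone in Ve and 1 µM autogramin-2 alone in A1. In 3 lines, all but M11, a library with 10 µM regorafenib (R10) was also made. The title of the M3 library of R4A1 gives no line, and it was placed by its library name.

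Regorafenib is an inhibitor of several kinases, among them the VEGF, PDGF and FGF receptors, TIE2, KIT, RET and RAF. Autogramin-2 is a small molecule that binds GRAMD1A, a protein of the endoplasmic reticulum that carries cholesterol from the plasma membrane and takes part in the formation of autophagosomes, and it is used to block autophagy. Colon fibroblasts make the collagen matrix below the epithelium, supply growth factors to the crypts and can take on contractile features. The comparison asked which transcripts of the stromal cells moved when the autophagy inhibitor was added to the kinase inhibitor.

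Expression was measured by bulk RNA sequencing and deposited as CP20M, the reads of a gene scaled to 20000000 reads counted on genes in the library, so that 20 CP20M is 1 CPM. The smallest step between values, which is what 1 read is worth, was 1.938 to 2.409 CP20M in R4 and R4A1, which corresponds to between 8303000 and 10320000 reads counted per library. Levels are compared within a gene and not between genes, because longer transcripts collect more reads on this scale. A gene was tested when it reached 200 CP20M in at least 2 of the 8 libraries, which held for 10612 genes. Fold changes are given as log2(R4A1 + 20) minus log2(R4 + 20) with the standard error (SE) of the paired fit over 4 lines, and a gene was called at an adjusted p under 0.05 and a change of at least 1.5-fold.

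The labelled cell type was checked against markers. The 12 fibroblast markers, Col1a1 and Pdgfra among them, summed to between 252512 and 358133 CP20M in R4 and between 290214 and 338376 in R4A1. Epithelial markers were near the floor, with 9 of 12 below 50 CP20M in all 8 libraries and Epcam and Krt8 listed at 0, and 6 of 7 mesothelial markers were below 50 CP20M. Smooth muscle and pericyte markers summed to 26695 to 60686 CP20M and were lower in R4A1 in 4 of 4 lines, and glial and neuronal markers summed to 1513 to 21082 and were also lower in 4 of 4 lines.

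Of the marker lists, the endothelial list had the lowest median log2 fold change between R4A1 and R4. The 10 markers, among them the adhesion proteins Pecam1 and Cdh5, the VEGF receptor Kdr and the tight junction protein Cldn5, summed to 2516 CP20M in M3, 39957 in M3(2), 10761 in M1(2) and 12136 in M11 under R4. Under R4A1 the sums were 2936 in M3, 23715 in M3(2), 2741 in M1(2) and 2777 in M11. The sum was thus lower with autogramin-2 in 3 lines, with log2 ratios of −0.75, −1.97 and −2.13 in M3(2), M1(2) and M11, and higher in M3 with 0.22. Of the 9 endothelial markers tested none was called, and their median log2 fold change was −1.03. Macrophage and leukocyte markers were sparse, with 9 of 19 below 50 CP20M in all 8 libraries and Cd3e listed at 0, and their sum went from 834 to 2380 CP20M in R4 to 596 to 829 in R4A1, lower in 4 of 4 lines. Much of that sum was Lyz2. Without Lyz2 the sums were 593, 499, 517 and 1084 CP20M in M3, M3(2), M1(2) and M11 under R4. Under R4A1 they were 506, 410, 368 and 536, lower in each line, and the groups overlapped. Fewer cells of a type and less RNA per cell cannot be told apart in bulk samples. The part of these cells in the results was not tested apart from the values given beside the counts.

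**Figure D1:**
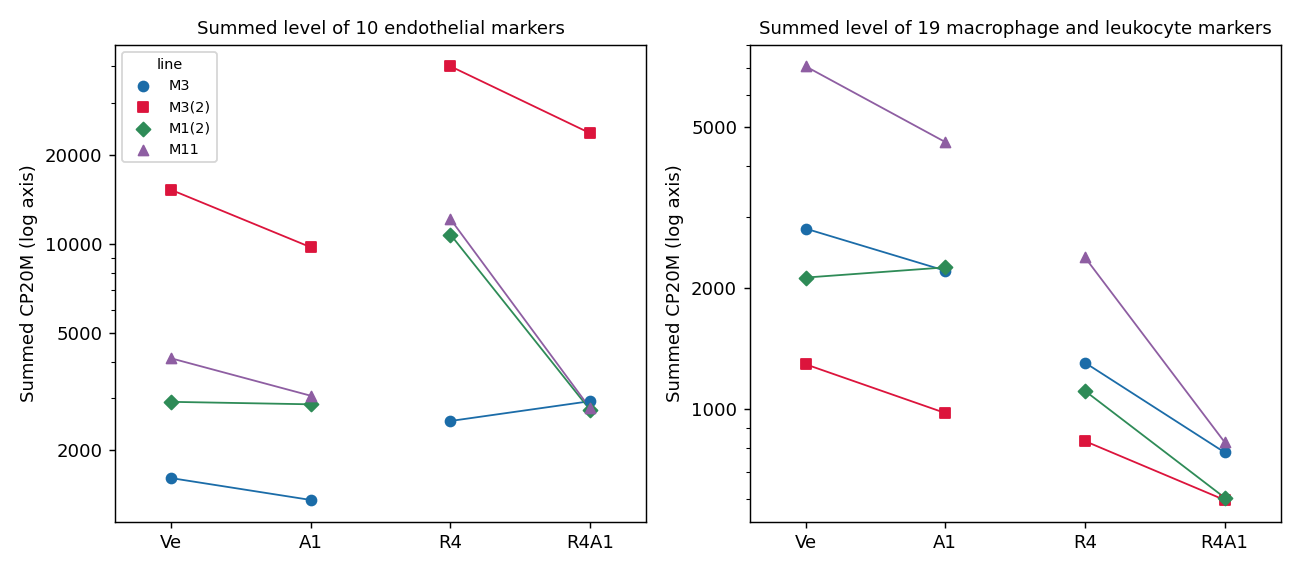
Summed level of 10 endothelial markers (left) and of 19 macrophage and leukocyte markers (right) in CP20M on a log axis, for each line in vehicle (Ve), autogramin-2 (A1), regorafenib (R4) and both (R4A1). Each point is 1 library and segments join the libraries of a line without and with autogramin-2, with the endothelial sum falling from 12136 to 2777 in M11 and moving from 2516 to 2936 in M3.

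Addition of autogramin-2 to regorafenib lowered far more transcripts than it raised. Of the 10612 genes tested, 83 were called (0.782%), 79 lower in R4A1 (0.744%) and 4 higher (0.0377%), and 16 of the lower genes fell at least 2-fold. At an adjusted p under 0.05 of any size there were 136 genes (1.28%), 116 lower and 20 higher. All 83 moved the same way in 4 of 4 lines, while over all genes 16.1% were lower and 10.2% higher in 4 of 4 lines. Of the 83 genes 41 reached 200 CP20M in all 8 libraries. Some falling genes, such as Fxyd6 and Slfn2, reached 200 CP20M in R4 alone, so the filter admitted them by the group where they were high. Tnfrsf11a, Ecscr, Angptl4 and Flt1 also met the filter through R4, with fewer than 2 R4A1 libraries at 200 CP20M. The lines differed so much in level that in only 9 of the 83 genes did the 4 R4A1 libraries lie wholly outside the range of the 4 R4 libraries, a separation seen in 2.16% of all genes. The 95% interval of the change lay within 1.5-fold either way for 9522 genes, 89.7% of those tested. At an unadjusted p under 0.05 there were 1981 genes (18.7%), 1352 lower (12.7%) and 629 higher (5.93%), and 57.9% of all genes had a log2 fold change below 0.

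The calls rested on the pairing of the libraries by line. Without the line in the model 0 genes were called by limma and 291 had an unadjusted p under 0.05. Without line M3 375 genes were called, without M3(2) 16, without M1(2) 5 and without M11 24. Over the 79 falling genes the median difference was −0.57 in M3 on the log2 scale, −0.74 in M3(2), −0.98 in M1(2) and −0.93 in M11. These lines chose the genes, so a fall in each of them, M3 included, was all but fixed by the call and is a description only. When the log2 sum of the endothelial markers was added as a covariate, an alternative chosen after the data were seen that takes 1 of the 3 residual degrees of freedom, 0 genes were called and 505 had an unadjusted p under 0.05. The median log2 fold change of the 79 was then −0.61 in place of −0.77, and single genes moved by very different amounts. With the covariate Kif26b was at −1.12, Slfn2 at −1.34, Myh11 at −0.91 and Slc7a11 at 1.09, close to or beyond their values without it, while others, given with both values below, were closer to 0.

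**Figure D2:**
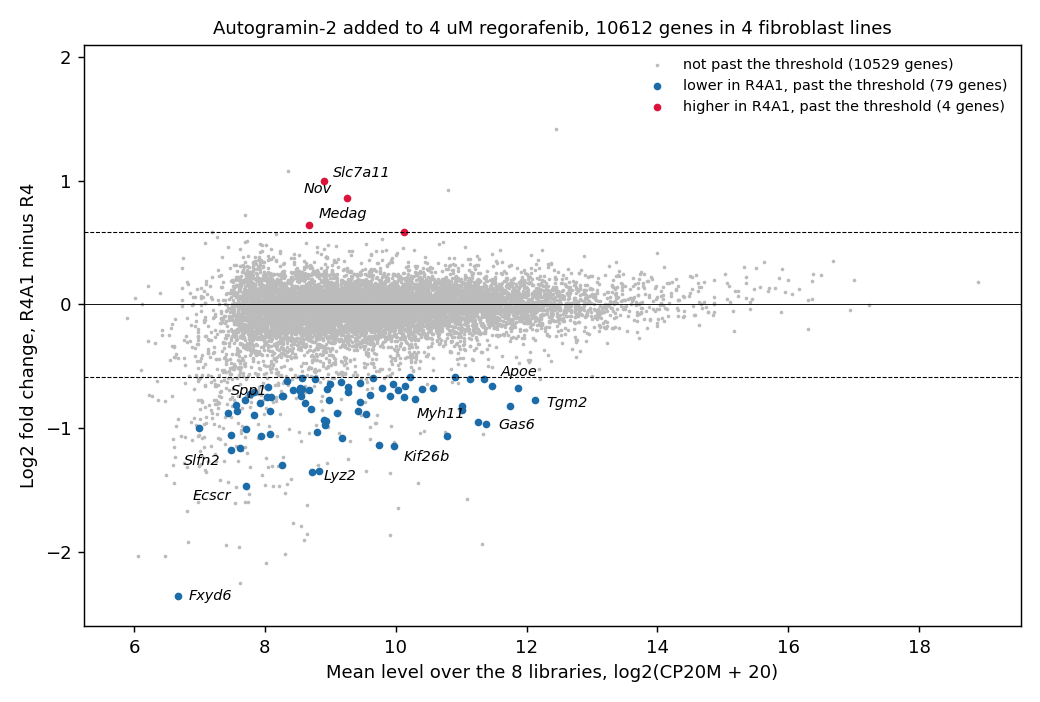
Log2 fold change of R4A1 against R4 (vertical axis) by mean level over the 8 libraries as log2(CP20M + 20) (horizontal axis), 1 point per gene, with dashed lines at 1.5-fold. The 79 blue points are genes called lower in R4A1 and the 4 red points those called higher, and the lower genes reach −2.36 (Fxyd6) while the higher genes end at 1.00 (Slc7a11).

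Slc7a11 showed the largest rise among the called genes. It encodes the cystine transporter of system xc-, which feeds glutathione synthesis, and lies on chromosome 3 at 49892526 to 50443614 on the minus strand of GRCm38. Its level under R4 was 297 CP20M in M3, 339 in M3(2), 339 in M1(2) and 299 in M11. Under R4A1 it was 701, 629, 873 and 478 CP20M in the same lines, so that the lowest R4A1 library lay above the highest R4 library. The log2 fold change was 1.00 ± 0.12 (SE, 4 lines), a 2.00-fold higher level, with a limma adjusted p of 0.017. With vehicle in place of regorafenib the levels were 470 to 916 CP20M in Ve and 650 to 1331 in A1.

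The promoter of Slc7a11 is shown because it carries an element bound by ATF4, the factor of the integrated stress response, and because other ATF4 genes are described beside it. The 250 bases before the RefSeq start (GRCm38.p6, chr3:50443614-50443863, minus strand) read as follows from 5′ to 3′, with the amino acid response element TGATGCAA and its reverse complement TTGCATCA in capitals.
Slc7a11: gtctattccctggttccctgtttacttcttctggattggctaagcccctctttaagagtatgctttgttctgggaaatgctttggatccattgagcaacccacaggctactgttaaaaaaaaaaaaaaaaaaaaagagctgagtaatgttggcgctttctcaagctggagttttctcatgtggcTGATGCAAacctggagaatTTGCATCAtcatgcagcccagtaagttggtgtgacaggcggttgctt
The 2 copies begin 66 and 47 bases before the start. A search for TGATGCAA on both strands found the element in 260 of 32851 windows of this length, or 0.791%, and in 5 of the 21 ATF4 list genes with a promoter in the table (Chac1, Fgf21, Nupr1, Slc7a11 and Vldlr). A match describes letters only and is not a measured site.

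Over all genes tested 0.0377% rose and 0.744% fell past the threshold, the shares to set beside the list counts here and below. In 4 of 4 lines 10.2% of all genes were higher and 16.1% lower. Across the 22 ATF4 and integrated stress response genes, 21 were tested, 1 rose (Slc7a11) and none fell. Their median log2 fold change was 0.17, against −0.03 over all genes, and 9 of 21 were higher in 4 of 4 lines while 2 were lower. Slc3a2, the partner chain of Slc7a11 in the transporter, was at 2655 to 3033 CP20M in R4 and 3115 to 3812 in R4A1, with no overlap between the groups and a log2 fold change of 0.25 ± 0.06 (limma adjusted p = 0.0752), which did not pass. The asparagine synthetase gene Asns and the amino acid transporter gene Slc7a5 had log2 fold changes of 0.27 ± 0.08 and 0.38 ± 0.12 and were higher in 4 of 4 lines without passing (both named after their values were seen). Atf4 itself had −0.02, and Cebpb and Ddit4, other genes of the response, were lower in 4 of 4 lines at −0.35 and −0.41, also without passing.

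NRF2 is the factor that drives antioxidant genes, and Slc7a11 belongs to that list as well. Of 19 NRF2 genes tested 1 rose (Slc7a11) and 1 fell (Nqo1), with a median log2 fold change of 0.04, and 7 were higher and 2 lower in 4 of 4 lines. Nqo1, a quinone reductase, was at 491, 2651, 1156 and 646 CP20M in M3, M3(2), M1(2) and M11 under R4 and at 418, 1470, 404 and 311 under R4A1. Its log2 fold change was −0.89 ± 0.16 (limma adjusted p = 0.0456), with a drop in each line that was smallest in M3. Mt2, a metallothionein that binds zinc and copper, was at 749 to 1130 CP20M in R4 and 1135 to 1495 in R4A1, without overlap. Its log2 fold change of 0.58 ± 0.08 had a limma adjusted p of 0.0252 but was just short of 1.5-fold, while the antisense gene Gm45774, which overlaps Mt2 on the opposite strand and showed nearly the same levels (1130 to 1479 CP20M in R4A1), was called at 0.59 ± 0.08. The strand setting of the counting is not given in the sources used here, so reads of Mt2 and Gm45774 cannot be told apart.

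The other rises were those of Nov and Medag. Nov, also named Ccn3, encodes a secreted matricellular protein of the CCN family and was at 270 CP20M in M3, 133 in M3(2), 528 in M1(2) and 1709 in M11 under R4. With autogramin-2 the levels were 479, 184, 1119 and 3893 CP20M, so each line went up from its own start and the groups overlapped. The log2 fold change was 0.86 ± 0.12 (limma adjusted p = 0.0252). Medag, a gene known for its role in fat cell differentiation, was at 433, 312, 317 and 206 CP20M in R4 and 706, 477, 484 and 356 in R4A1, a log2 fold change of 0.64 ± 0.09 (limma adjusted p = 0.0225).

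Below the fold threshold, 16 further genes with an adjusted p under 0.05 were higher, and 6 of them are given here by their p-values. The ADAMTS-like gene Adamtsl5 was at 1169 to 1584 CP20M in R4 and 1658 to 2272 in R4A1, without overlap, at 0.51 ± 0.06 on the log2 scale. Shc2, an adaptor of receptor tyrosine kinases, was at 647 to 844 and 968 to 1112 CP20M at 0.53 ± 0.08. Hmga1, an architectural chromatin protein, was at 1187 to 1435 and 1489 to 2110 CP20M at 0.49 ± 0.07. Mt2 has been described, Fyn, a kinase of the SRC family, changed by 0.37 ± 0.06 and the uncharacterised BC034090 by 0.44 ± 0.07.

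**Figure D3:**
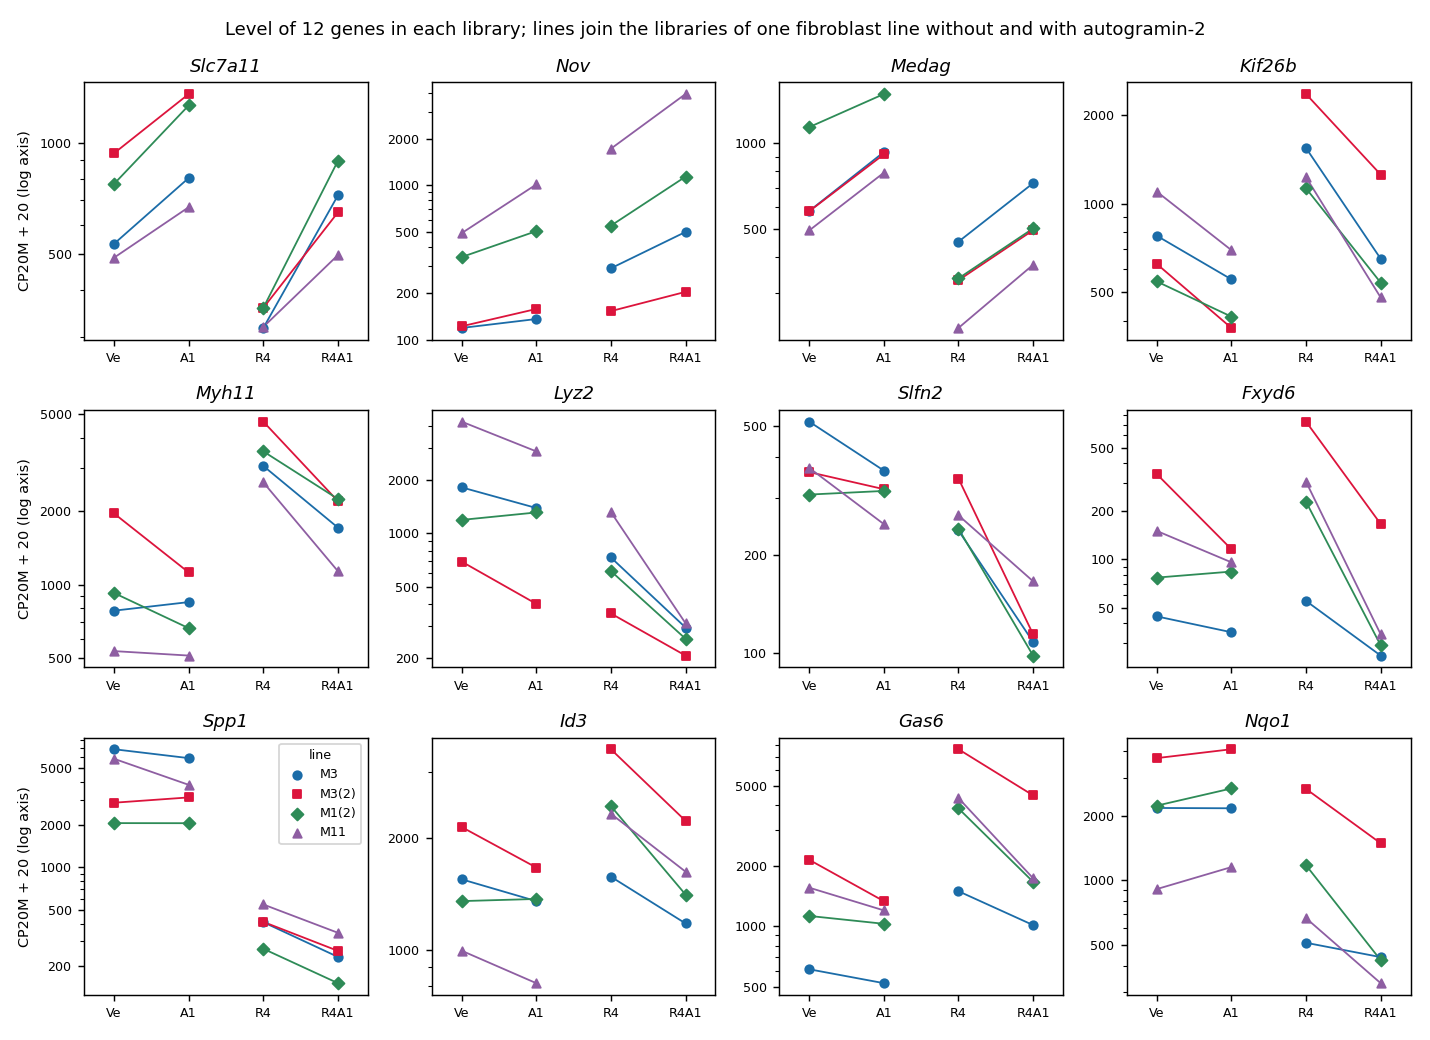
Level of 12 genes in each library (CP20M + 20, log axis) in vehicle (Ve), autogramin-2 (A1), regorafenib (R4) and both (R4A1), with colour and marker for the line and segments joining the libraries of a line without and with autogramin-2. All 4 lines go up from R4 to R4A1 for Slc7a11, Nov and Medag and down for the other 9 genes, and for Slc7a11 the R4A1 libraries (478 to 873 CP20M) lie above the R4 libraries (297 to 339 CP20M).

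Genes for chaperones and folding enzymes of the endoplasmic reticulum had small differences, mostly below 0. None of the 20 tested was called and their median log2 fold change was −0.14, but 15 of 20 were lower in 4 of 4 lines (16.1% over all genes) and 1 was higher, and for 19 of 20 the 95% interval lay within 1.5-fold. Dnajc3, a cochaperone of BiP, had the smallest p of the list. It was at 3006, 3543, 3725 and 2981 CP20M in M3, M3(2), M1(2) and M11 under R4 and at 2574, 2881, 3046 and 2553 under R4A1, and its log2 fold change was −0.26 ± 0.06 (limma adjusted p = 0.0663). Manf, a secreted protein of the folding response, was at −0.26 ± 0.07 (limma adjusted p = 0.0943). Hspa5, the gene of BiP, was lower in 3 lines and higher in M3, at −0.12 ± 0.07.

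Some of these genes are known targets of the unfolded protein response through the endoplasmic reticulum stress response element, CCAAT and CCACG with 9 bases of any kind between them. It was found on either strand in the 250 bases before the start of 8 of the 17 listed genes with a promoter in the table, and in 37 of 32851 windows, or 0.113%. The promoters of Dnajc3 (GRCm38.p6, chr14:118937682-118937931, plus strand) and Hspa5 (chr2:34771840-34772089, plus strand) are shown as examples, with the fixed letters of the element in capitals.
Dnajc3: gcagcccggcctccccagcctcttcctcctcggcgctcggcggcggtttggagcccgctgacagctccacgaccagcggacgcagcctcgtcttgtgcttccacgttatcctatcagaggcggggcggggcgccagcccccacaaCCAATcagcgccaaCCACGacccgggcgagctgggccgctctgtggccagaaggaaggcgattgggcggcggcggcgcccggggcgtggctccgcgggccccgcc
Hspa5: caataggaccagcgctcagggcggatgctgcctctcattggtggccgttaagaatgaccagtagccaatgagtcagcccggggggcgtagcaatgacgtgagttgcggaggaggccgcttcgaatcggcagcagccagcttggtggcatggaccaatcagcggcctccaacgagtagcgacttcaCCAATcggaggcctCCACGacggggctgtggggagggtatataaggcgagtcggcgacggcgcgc
The element begins 105 bases before the start in Dnajc3 and 65 bases before it in Hspa5. Both genes thus hold the same letters, while Dnajc3 was lower in 4 of 4 lines and Hspa5 in 3.

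Among the falls, Kif26b had the smallest p-value of all genes. It encodes a kinesin family protein that is known to take part in cell adhesion and polarity, and it lies on chromosome 1 at 178529125 to 178939200 on the plus strand. Its level was 1526 CP20M in M3, 2339 in M3(2), 1108 in M1(2) and 1210 in M11 under R4, and 630, 1236, 519 and 460 under R4A1. The differences ran from −0.91 in M3(2) to −1.36 in M11, and the log2 fold change was −1.15 ± 0.09 (limma adjusted p = 0.0039), 0.452 times the level under regorafenib alone. It was called lower whichever line was left out.

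The largest fall by size, that of Fxyd6, rested on low levels. Fxyd6, a regulator of the sodium pump, was at 35, 711, 210 and 287 CP20M in M3, M3(2), M1(2) and M11 under R4 and at 5, 147, 9 and 14 under R4A1, with a log2 fold change of −2.36 ± 0.34 (limma adjusted p = 0.0252). The size depended on the pseudocount, with −3.38 at a pseudocount of 1 and −1.34 at 100, and it was −1.39 with the endothelial covariate. Atp1b1, a subunit of the same pump, was at 725, 3056, 1046 and 1026 CP20M and at 475, 1971, 371 and 264, a log2 fold change of −1.14 ± 0.20 (limma adjusted p = 0.0406), or −0.53 with the endothelial covariate. Both genes were highest in M3(2) and lowest in M3 under R4, as was the endothelial marker sum. Whether they followed these markers was not tested.

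Ecscr, Clca3a1 and Lyz2 were also among the 10 largest falls. Ecscr, a receptor of endothelial cells, was at 82, 930, 360 and 385 CP20M in R4 and 52, 412, 98 and 50 in R4A1, at −1.46 ± 0.28 on the log2 scale and −0.62 with the endothelial covariate. Lyz2, the lysozyme of macrophages, was at 712, 335, 594 and 1296 CP20M in R4 and 276, 186, 236 and 293 in R4A1, without overlap, at −1.36 ± 0.18 (limma adjusted p = 0.0205). Ptprc, the pan-leukocyte gene, was at 7 to 42 CP20M in R4 and 3 to 10 in R4A1, and Csf1r was at −0.20 ± 0.12 and not called. Clca3a1, a secreted protein of the chloride channel regulator family that marks lymphatic endothelium, was at −1.34 ± 0.25, or −0.54 with the endothelial covariate. Prox1, the master regulator of lymphatic endothelial identity, was not called but went from 9090 to 4864 CP20M in M3(2), from 3123 to 220 in M11, from 1963 to 269 in M1(2) and from 181 to 173 in M3 (named after its values were seen), and its log2 fold change of −1.86 was −0.15 with that covariate.

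Hmcn1, Tnfrsf11a, Ccdc3 and Slfn2 completed the 10 largest falls. Hmcn1, a large extracellular matrix protein, was at 268, 978, 501 and 334 CP20M under R4 and 203, 383, 165 and 67 under R4A1, at −1.30 ± 0.22 and −0.62 with the endothelial covariate. Tnfrsf11a, the receptor RANK, went from 545 to 186 CP20M in M3(2), from 289 to 157 in M1(2) and from 224 to 55 in M11 and was lower in M3 as well, at −1.16 ± 0.19. The filter admitted Tnfrsf11a by its R4 libraries, the group where it was high. Ccdc3, a secreted protein, was at 266, 2091, 1058 and 749 CP20M and at 196, 1029, 434 and 224, at −1.08 ± 0.17 (−0.56 with the covariate), and the antisense gene Gm26776 that covers it was called with nearly the same value, −1.03 ± 0.16. The limma adjusted p of Hmcn1, Tnfrsf11a and Ccdc3 was 0.0406, 0.0358 and 0.0318.

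A gene is annotated on the opposite strand of 37 of the 83 called genes (44.6%, against 48.3% of the genes tested with a position) and on the same strand of 23 (27.7% against 26%). Pairs that were both called were Tgm2 with Gm20412 (−0.77 and −0.75), Txnip with Gm15441 (−0.67 and −0.65), Ccdc3 with Gm26776 and, on the same strand, Slc5a3 with Mrps6 (−0.82 and −0.63). The members of each pair may share reads and are not separate results.

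The study, which tested with edgeR at the same cut-offs, reported no significant difference of the combination from regorafenib alone beyond a few genes. The 83 calls here come from limma with the line as a block, and edgeR was not run. The study names Spp1, Slfn2 and Angptl4 for the combination, a choice made on these samples, so their direction is not independent evidence. Spp1, the secreted matrix phosphoprotein osteopontin, was at 390, 392, 246 and 527 CP20M in M3, M3(2), M1(2) and M11 under R4 and at 213, 237, 132 and 325 under R4A1. The log2 fold change was −0.74 ± 0.10 (limma adjusted p = 0.0225), on a level that was already low beside the 2036 to 6821 CP20M of the vehicle libraries. Slfn2, a Schlafen gene induced by interferon that restrains lymphocyte proliferation, was at 218, 324, 221 and 245 CP20M in R4 and 88, 94, 78 and 146 in R4A1, without overlap, at −1.18 ± 0.17 (limma adjusted p = 0.0269). Angptl4, a secreted inhibitor of lipoprotein lipase, was at 169, 408, 217 and 206 CP20M and at 104, 265, 90 and 83, at −0.86 ± 0.15 (limma adjusted p = 0.0455), or −0.57 with the endothelial covariate.

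All 4 Id genes fell. They encode helix-loop-helix proteins without a DNA-binding domain, are classic targets of BMP signalling and were picked out after their values were seen. Id3 was at 1553, 3437, 2413 and 2301 CP20M in M3, M3(2), M1(2) and M11 under R4 and at 1159, 2202, 1389 and 1603 under R4A1, a log2 fold change of −0.59 ± 0.07 (limma adjusted p = 0.0198). Id4 was at 279 to 364 CP20M in R4 and 142 to 215 in R4A1, without overlap, at −0.75 ± 0.13 (limma adjusted p = 0.0407). Id1 and Id2 were at −0.65 ± 0.12 and −0.94 ± 0.15 (limma adjusted p = 0.0455 and 0.0358). Bambi, a decoy receptor of the TGF-beta family that BMP also induces, fell by 0.81 on the log2 scale (SE 0.14). Bmp4 was at 404, 2306, 949 and 907 CP20M in R4 and at 340, 1595, 496 and 228 in R4A1, at −0.89 ± 0.22, and did not pass (limma adjusted p = 0.0808). With the endothelial covariate it was at −0.25. Smad6, a BMP-induced inhibitor, was at −0.25 ± 0.10 and was lower in 3 of 4 lines.

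Of 24 TGF-beta ligand, receptor and target genes tested none was called, with a median log2 fold change of −0.05 and 6 lower and none higher in 4 of 4 lines. Ltbp2, a latent TGF-beta binding protein of the matrix, had a limma adjusted p of 0.0481 at −0.44 ± 0.08, under the fold threshold. Fst, the secreted activin antagonist follistatin, was at 477, 4463, 1251 and 1641 CP20M in R4 and 309, 3623, 456 and 356 in R4A1, at −1.11 ± 0.25 (limma adjusted p = 0.0667) and −0.39 with the endothelial covariate. Its difference was thus large in M11 and M1(2) and small in M3(2).

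Myh11, the smooth muscle myosin heavy chain, was at 3047, 4642, 3500 and 2606 CP20M in M3, M3(2), M1(2) and M11 under R4 and at 1692, 2178, 2224 and 1114 under R4A1. The groups did not overlap, and the log2 fold change was −0.95 ± 0.09 (limma adjusted p = 0.00801). Cnn1, calponin, had an adjusted p of 0.0406 at −0.42 ± 0.07, below the fold threshold. Acta2 and Tagln, the actin and actin-binding genes used to mark myofibroblasts, were at 0.11 ± 0.07 and 0.01 ± 0.10. Over the 19 genes of the list 1 fell, none rose and the median was 0.01, with 5 lower and 2 higher in 4 of 4 lines.

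In the matrix, Col11a1 fell among 22 collagen genes tested. This fibrillar collagen was at 871, 733, 567 and 453 CP20M in R4 and 409, 542, 344 and 228 in R4A1, at −0.77 ± 0.11 (limma adjusted p = 0.0252). Col14a1 had an adjusted p of 0.0455 at −0.57 ± 0.11, just under 1.5-fold. Col1a1, the main collagen of these cells, was at −0.20 ± 0.10, and the median of the list was −0.02. Among 27 matricellular, glypican and adhesion genes 1 rose (Nov) and 2 fell (Spp1 and Itga8), with a median near 0. Itga8, an integrin chain that binds osteopontin and fibronectin, was at 1089 to 1381 CP20M in R4 and 529 to 935 in R4A1, without overlap, at −0.65 ± 0.11 (limma adjusted p = 0.0358). Plaur, the urokinase receptor, was the fall among 21 matrix protease and inhibitor genes, at 811, 1640, 915 and 716 CP20M in R4 and 574, 1258, 529 and 419 in R4A1 (−0.59 ± 0.09, limma adjusted p = 0.0269). Serpine2, an inhibitor of thrombin and urokinase, was at −0.58 ± 0.09 (limma adjusted p = 0.0271), just under the fold threshold.

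Growth factor genes included 1 called ligand of the IGF list. Igf1 was at 2619, 2065, 1788 and 849 CP20M in R4 and 1387, 1275, 1083 and 627 in R4A1, at −0.68 ± 0.08 (limma adjusted p = 0.0189). Of the 14 IGF genes tested Igf1 was the single call, and Igfbp5, which binds IGF1, was at −0.74 ± 0.15 (limma adjusted p = 0.0536). Gas6, the secreted ligand of the TAM receptors AXL, TYRO3 and MERTK, was at 1475, 7592, 3843 and 4330 CP20M in R4 and 994, 4466, 1645 and 1715 in R4A1, at −0.97 ± 0.12 (limma adjusted p = 0.0189, named after its values were seen). Axl was at 15153 to 24547 CP20M in R4 and 17823 to 25093 in R4A1, at 0.21 ± 0.07, and was not called. Among 15 FGF, PDGF and VEGF ligand genes none was called, and Pdgfb, a PDGF chain, was at −0.34 ± 0.08 and lower in 4 of 4 lines (limma adjusted p = 0.0725). Hgf, the ligand of MET, was at 285 to 527 CP20M in R4 and 187 to 241 in R4A1, without overlap, at −0.64 ± 0.15 (limma adjusted p = 0.0691).

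Of the receptors and kinases that regorafenib inhibits 15 were tested, with a median of −0.12, and for 10 of them the 95% interval lay within 1.5-fold. Flt1, a VEGF receptor of endothelial cells, was the single call, at 156, 1428, 207 and 429 CP20M in R4 and 123, 810, 115 and 189 in R4A1 (−0.74 ± 0.14, limma adjusted p = 0.0455). Flt4, the VEGF receptor of lymphatic endothelium, was at −1.04 ± 0.24 (limma adjusted p = 0.0729, −0.26 with the endothelial covariate) with a higher value in M3, where it moved from 776 to 866 CP20M. Pdgfra and Pdgfrb, the PDGF receptors of fibroblasts, were at 0.03 and 0.04. Ptprb, a receptor phosphatase of endothelial cells, was named after its values were seen. It was at 2828, 5324, 1995 and 1891 CP20M in R4 and 1616, 3341, 1121 and 861 in R4A1, at −0.85 ± 0.08 (limma adjusted p = 0.00801). In M3, where Ptprb fell, the endothelial sum went from 2516 to 2936 CP20M. Whether Ptprb followed the endothelial markers was not tested.

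None of the 3 genes of the autogramin-2 target family was called. Gramd1a, which encodes the bound protein, was at 907, 1403, 949 and 1252 CP20M in M3, M3(2), M1(2) and M11 under R4 and at 906, 1094, 939 and 1102 under R4A1. Its log2 fold change was −0.14 ± 0.08, with a 95% interval from −0.32 to 0.04. Gramd1b was at 297 to 853 CP20M in R4 and 328 to 819 in R4A1, at −0.09 ± 0.13 with an interval from −0.39 to 0.20, and its sign changed without line M3(2). Gramd1c was at 24 to 80 and 25 to 56 CP20M and was too low to be tested. Of the 14 target and sterol carrier genes tested none was called and the median was −0.09. Stard4, a soluble sterol carrier, was at −0.56 ± 0.13 (limma adjusted p = 0.0667), and Npc1, the cholesterol exporter of lysosomes, at 0.20 ± 0.07 (limma adjusted p = 0.18).

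None of 24 genes of cholesterol synthesis and uptake was called, the median was −0.03, and for 24 of 24 the 95% interval lay within 1.5-fold. Ebp and Insig2 had the smallest p of the list at −0.25 ± 0.09 and 0.21 ± 0.08. LXR target and efflux genes, which respond to oxysterols, held 2 falls among 10 tested, beside 0.744% of all genes. Of the 10, 8 had a log2 fold change below 0 and 2 above. Apoe, the lipid-carrying apolipoprotein, was at 1080, 2965, 4175 and 11744 CP20M in R4 and 812, 1542, 2264 and 8688 in R4A1, at −0.66 ± 0.10 (limma adjusted p = 0.0275). Abca1, the cholesterol efflux pump, was at 1485, 2649, 3200 and 8083 CP20M and at 1241, 1253, 2241 and 5438, at −0.60 ± 0.11 (limma adjusted p = 0.0475). With the endothelial covariate Apoe was at −0.60 and Abca1 at −0.54. The median of the list was −0.06.

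None of 39 autophagy machinery genes was called, the log2 fold changes ran from −0.26 to 0.23 around a median of −0.02, and all 39 intervals lay within 1.5-fold. Uvrag, a subunit of a PI3-kinase complex, was at −0.26 ± 0.07 (limma adjusted p = 0.0882). Map1lc3b, the gene of LC3B, which coats autophagosomes, was at 3725, 3959, 4855 and 3727 CP20M in R4 and 3258, 3520, 3394 and 3400 in R4A1, without overlap, at −0.25 ± 0.08 (limma adjusted p = 0.125). The difference was largest in M1(2). Of 32 lysosomal and TFEB pathway genes none was called, the median was −0.02 and 31 intervals lay within 1.5-fold. The smallest p-values there were those of Rragd, a GTPase that recruits mTORC1 to lysosomes, at 0.32 ± 0.09 and higher in 4 of 4 lines, and of Gla, a lysosomal galactosidase, at −0.30 ± 0.10 and lower in 3. These are transcript levels and say nothing of autophagic flux.

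**Figure D4:**
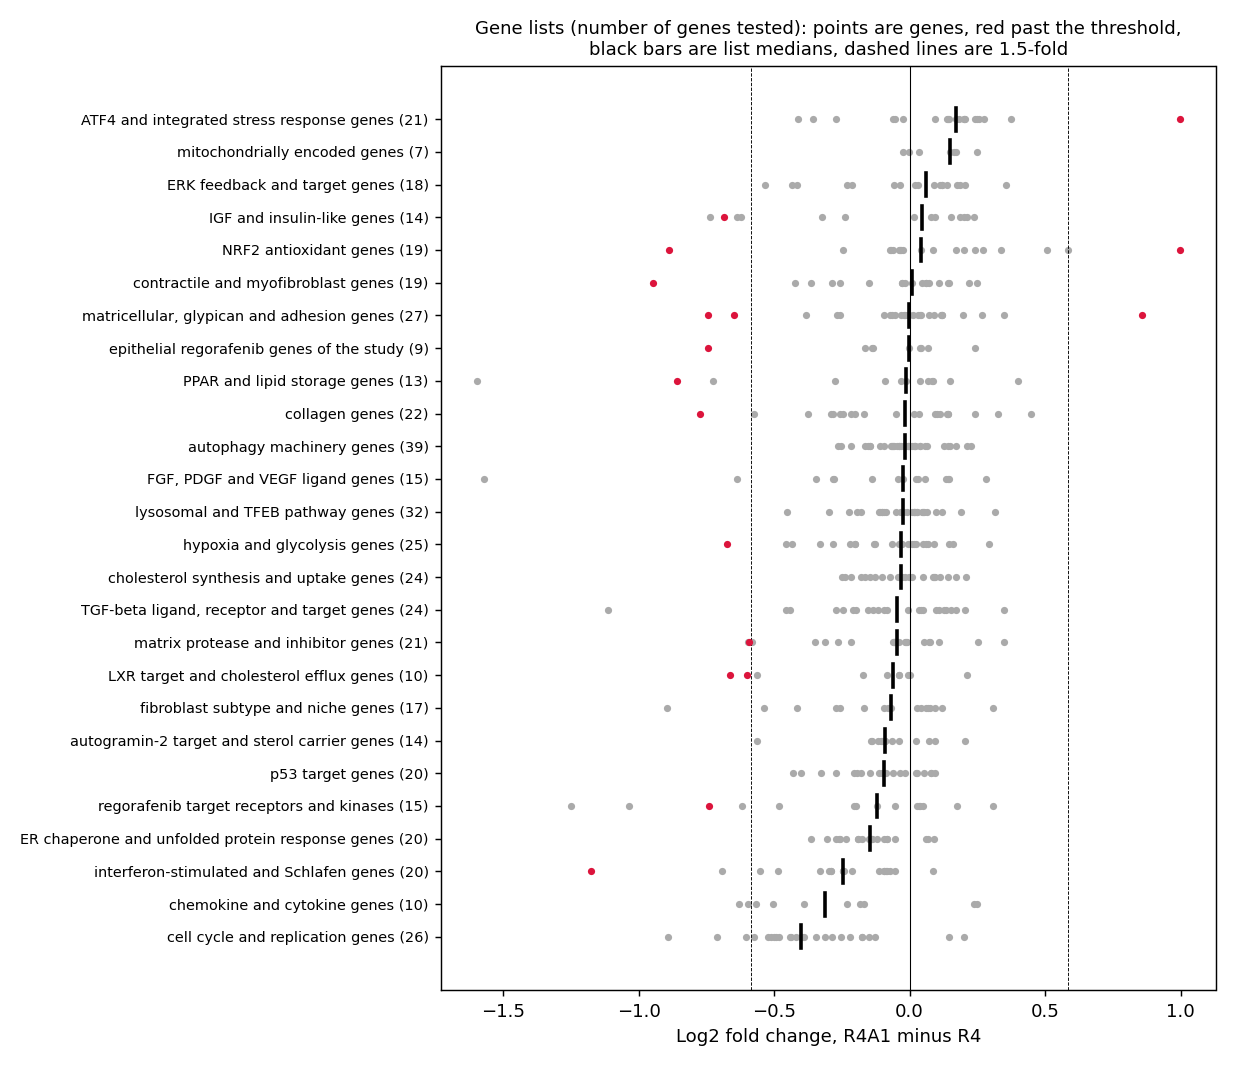
Log2 fold change of R4A1 against R4 for every tested gene of 26 lists (1 row per list, number tested in brackets), with called genes in red, the list median as a black bar and dashed lines at 1.5-fold. Medians run from 0.17 (ATF4 genes) to −0.40 (cell cycle genes), and the autophagy genes lie between −0.26 and 0.23.

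Cell cycle and replication genes had a median of −0.40, though none of 26 was called. By line the median was −0.03 in M3, −0.46 in M3(2), −0.22 in M1(2) and −0.82 in M11, and 9 of 26 were lower and 1 higher in 4 of 4 lines. Cdc20, an activator of the anaphase-promoting complex, was at 165, 445, 248 and 355 CP20M in R4 and 128, 265, 182 and 122 in R4A1, at −0.71 ± 0.18 (limma adjusted p = 0.0848). Ccna2, cyclin A2, was at −0.57 ± 0.15 (limma adjusted p = 0.0829). The log2 ratio of the endothelial sum was 0.22 in M3, −0.75 in M3(2), −1.97 in M1(2) and −2.13 in M11. M3 and M11 were thus at the ends of both series, while M3(2) and M1(2) stood in the opposite order. With the endothelial covariate Cdc20 was at −0.41 and Ccna2 at −0.19, with interval half-widths of 0.57 and 0.38. Whether the cell cycle values followed the endothelial markers was not tested. Without the covariate the interval lay within 1.5-fold for 7 of 26 genes. Of 20 p53 target genes none was called and the median was −0.10, with Fas, a death receptor, at −0.40 ± 0.12 and Perp, a desmosomal protein, at −0.43 ± 0.13.

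ERK feedback and target genes, which report signalling below the inhibited receptors, gave no call among 18 tested, with a median of 0.06. Spry1 and Ier3 had adjusted p-values of 0.0406 and 0.0475 at −0.53 ± 0.09 and −0.42 ± 0.08, under the fold threshold. In 4 of 4 lines 6 genes of the list were higher and 3 lower, beside 10.2% and 16.1% of all genes. Interferon-stimulated and Schlafen genes had a median of −0.24, with Slfn2 the single call of 20 and 5 lower in 4 of 4 lines. Slfn5 was at −0.69 ± 0.18 (limma adjusted p = 0.0914). Chemokine and cytokine genes had a median of −0.31 over 10 tested, 6 lower and 1 higher in 4 of 4 lines and none called. Nfkbia, the inhibitor and target of NF-kappaB, was at −0.57 ± 0.10 (limma adjusted p = 0.0411), and Ccl7 at 551 to 835 CP20M in R4 and 302 to 542 in R4A1, without overlap, at −0.60 ± 0.15 (limma adjusted p = 0.0829).

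Txnip, an inhibitor of thioredoxin and of glucose uptake, fell among 25 hypoxia and glycolysis genes. It was at 1799, 2080, 1674 and 2086 CP20M in M3, M3(2), M1(2) and M11 under R4 and at 1262, 1304, 1183 and 1014 under R4A1, without overlap, at −0.67 ± 0.09 (limma adjusted p = 0.0252). Arrdc4, its relative among the arrestins, was at −0.33 ± 0.09 (named after its values were seen, limma adjusted p = 0.0997). Hk2, a hexokinase of the same list, was at 0.29 ± 0.07 and higher in 4 of 4 lines without passing (limma adjusted p = 0.0713), and the median of the list was −0.03. Of 13 PPAR and lipid storage genes Angptl4 was the single call, and Fabp4, a fatty acid carrier of fat and endothelial cells, was at 92, 1001, 378 and 406 CP20M in R4 and 74, 545, 55 and 38 in R4A1, at −1.60 ± 0.38 (limma adjusted p = 0.0766) and −0.32 with the endothelial covariate. Fibroblast subtype and niche genes gave no call among 17 (median −0.07), with the Wnt ligand gene Wnt5a at −0.27 ± 0.07 (limma adjusted p = 0.0773). The epithelial genes that the study followed under the combination gave Spp1 alone among 9 (median near 0), with Mex3a, an RNA-binding protein, at 0.24 ± 0.10 and higher in 4 of 4 lines. The 7 mitochondrially encoded genes gave no call (median 0.15), with mt-Co1 at 0.25 ± 0.09 and mt-Nd5 at 0.16 ± 0.14, whose sign turned without M1(2).

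Other falls with small p-values, named after their values were seen, were those of Nedd9, Tgm2, Alcam and Popdc2. Nedd9, a scaffold of focal adhesions, was at 2119, 2678, 1506 and 777 CP20M in R4 and 1270, 1728, 829 and 425 in R4A1, at −0.76 ± 0.07 (limma adjusted p = 0.00801). Tgm2, a transglutaminase that cross-links matrix proteins, was at 7634, 8822, 4639 and 3708 CP20M and at 4291, 6410, 2572 and 1911, at −0.77 ± 0.08 (limma adjusted p = 0.00998). Alcam, a cell adhesion molecule, was at −0.68 ± 0.07 and Popdc2, a membrane protein of muscle, at −1.05 ± 0.11 (limma adjusted p = 0.00998 for both).

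Autogramin-2 alone was compared with vehicle in the same lines, in a fit of 16 libraries and 10979 genes. No gene had an adjusted p under 0.05 by limma, 807 (7.35%) had an unadjusted p under 0.05 and the smallest adjusted p was 0.168. Of the 79 genes lower in R4A1, 77 had a log2 fold change below 0 in A1 against Ve, as did 58.6% of all genes, and the 4 higher genes were above 0. These contrasts share no library, but they share the 4 lines, and endothelial markers were lower in A1 than in Ve in 4 of 4 lines and macrophage markers in 3. In this fit R4A1 against R4 gave 150 calls (1.37%). The median of the 79 genes was −0.27 in A1 against Ve. It was −0.77 in R4A1 against R4, the contrast on which they were chosen, so the larger size there is not a result.

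Slc7a11 went from 514 to 783 CP20M in M3, from 916 to 1331 in M3(2), from 754 to 1239 in M1(2) and from 470 to 650 in M11 when autogramin-2 was added to vehicle, a log2 fold change of 0.57 ± 0.14. Medag changed by 0.60 ± 0.19, Nov by 0.54 ± 0.26 and Txnip by −0.50 ± 0.08 in A1 against Ve, with limma adjusted p-values of 0.397, 0.543, 0.68 and 0.168 for the 4 genes in this order. Nqo1 and Flt1 were the falling genes with a value above 0, at 0.19 ± 0.23 and 0.01 ± 0.22.

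**Figure D5:**
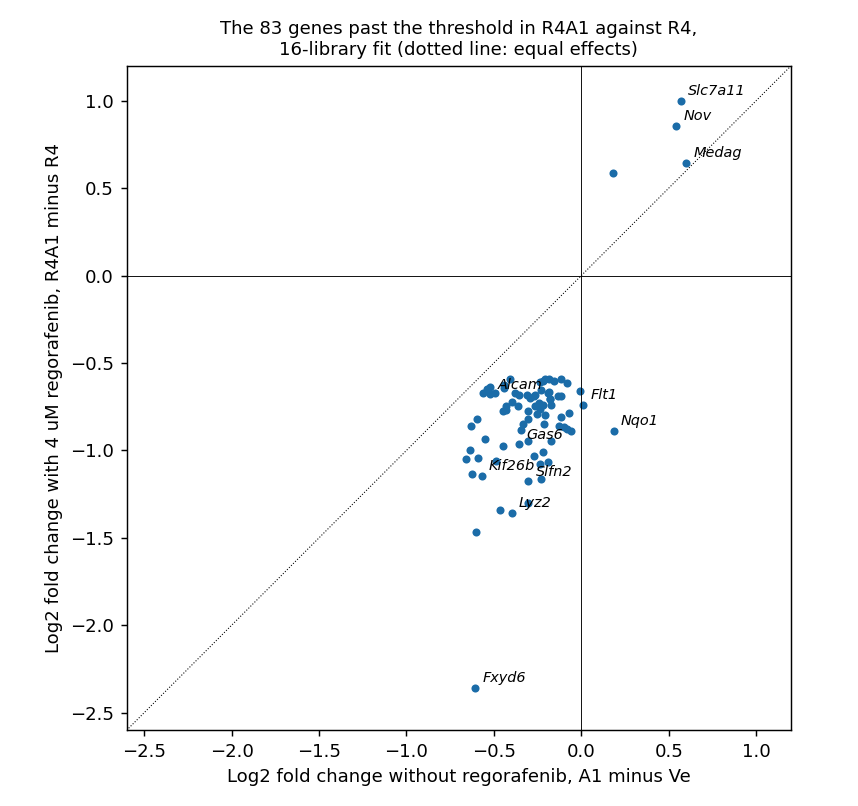
Log2 fold change of the 83 called genes with autogramin-2 alone (A1 minus Ve, horizontal axis) and with autogramin-2 added to 4 µM regorafenib (R4A1 minus R4, vertical axis), from 1 fit of 16 libraries, with a dotted line where both are equal. The genes were chosen on the vertical axis, and 77 of the 79 lower genes lie left of 0.

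Whether the response to autogramin-2 differed with and without regorafenib was tested as an interaction. No gene passed (0 of 10979 at an adjusted p under 0.05 by limma, 736 or 6.7% at an unadjusted p under 0.05), and the median half-width of the 95% interval of the difference was 0.26 on the log2 scale. The difference was 0.43 for Slc7a11, with an interval from −0.01 to 0.87, and 0.04 for Medag, with an interval from −0.52 to 0.61. For Kif26b it was −0.58 (interval −1.42 to 0.27) and for Nqo1 −1.07 (interval −1.76 to −0.38, limma adjusted p = 0.726). These intervals are wide, so the effects with and without regorafenib were not shown to be alike.

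Regorafenib at 4 µM against vehicle called 780 genes (7.1%) in the fit of 16 libraries, a comparison that shares the R4 libraries, so levels are given side by side. Myh11 was at 513 to 1937 CP20M in Ve, Itga8 at 242 to 426 and Hmcn1 at 52 to 203, all below their R4 levels. Angptl4 was at 431 to 656 CP20M in Ve and Nqo1 at 890 to 3701.

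Levels with 10 µM regorafenib, measured in 3 lines, stand beside those of the combination without a test, since the dose and the lines differ. Slfn2 was at 31 to 63 CP20M in R10, Angptl4 at 61 to 94, Spp1 at 102 to 159 and Nqo1 at 233 to 590. Myh11 was at 2838 to 3796 CP20M in R10, Itga8 at 1906 to 2931 and Hmcn1 at 732 to 807. Slc7a11 was at 208 to 316 CP20M in R10 and 478 to 873 in R4A1.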

How the data were processed

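The authors trimmed paired-end reads with Trimmomatic 0.36, aligned them to GRCm38 with STAR 2.5.3a (version per the labels), counted them per Ensembl gene with HTSeq 0.9.1 and scaled each library to 20000000, and the deposited signal values (CP20M) are these scaled counts rounded up. The labels and the paper name different library kits, and strand use in the counting is not given in the sources used here. Of the deposited values 99.6% to 99.9% are whole multiples of a library's smallest step, from which depth was estimated.

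Values were analysed as log2(CP20M + 20) with limma 3.58.1 in R 4.3.3 (lmFit and eBayes with trend), with the line as a block and Benjamini-Hochberg adjustment over all genes tested, at least 200 CP20M in 2 libraries. The line served as block because libraries of the same line deviated together (r = 0.401 to 0.906 over 4 pairs) and those of different lines mostly did not (−0.718 to 0.256). No library copied another, with a chi-square per gene of at least 8.74. The fits were tested on simulated data.

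Named genes were the 10 largest rises and falls past the threshold, filled up by p, the genes the study named, called members and the 2 smallest p-values of 27 lists, and the Gramd1 genes. Members and lists were chosen with earlier results of these data known. Intervals cover the spread of the paired differences between lines. Positions are from GENCODE M21 (GRCm38), which holds 52489 of 52636 genes, and promoters from RefSeq (GRCm38.p6). Alternatives are given in the closing section. The organoid libraries were not used here.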

Additional observations from a re-analysis of the deposited data

Results flagged for a closer look

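Map1lc3b in line M1(2) stood apart. Its difference between R4A1 and R4 was −0.514 on the log2 scale there and between −0.192 and −0.132 in the other 3 lines. The gap was past the limit of Dixon's test for 4 values, and it was the only one among 73 genes examined. Chance alone gives about 1 in 20, a larger share than was seen, so the gap is a description only.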

How the results depend on the processing

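The 83 calls (79 lower, 4 higher) had the same sign in 4 of 4 lines, so nearly all settings had to keep the signs. Array weights only reweight the differences within lines, and the shift by TMM scaling was small beside 1.5-fold. Only the endothelial covariate could turn a sign, and 83 of 83 kept theirs with it. Without the replicate block 0 genes were called (0 lower, 0 higher, 291 at an unadjusted p under 0.05), and with the replicate block in all 19 fibroblast libraries 158 (155 lower). A pseudocount of 100 gave 55 (2 higher). A filter of 200 CP20M in all 8 libraries gave 54 (51 lower). Only 41 of the 83 calls were tested under that filter, and all 41 were called again. No filter gave 0 (0 lower, 0 higher) with a smallest adjusted p of 0.112 by limma among 27499 genes, 3344 at an unadjusted p under 0.05, 4484 changed the same way in 4 lines and 23304 with an interval within 1.5-fold. Leaving out a line gave 5 to 375 calls (375 without M3, 16 without M3(2), 5 without M1(2), 24 without M11), 5 to 365 of them lower and 0 to 10 higher. Between 3723 and 4278 genes changed the same way in the 3 lines left. With the endothelial sum as a covariate beside the replicate block, an alternative added after the data were seen, 0 were called (0 lower, 0 higher, 505 at an unadjusted p under 0.05). The pseudocount of 1 gave 83, TMM scaling 98 and array weights 95. The causes were not tested. The interaction gave 0 to 1 calls when a line was left out, the 1 being Mmrn1 without M3 (adjusted p = 0.0205). Of the named genes, Gramd1b ran from −0.26 to 0.016 when a line was left out (0.016 without M3(2)) and turned to 0.12 with the endothelial covariate, Mertk to 0.051 with that covariate, and mt-Nd5 from −0.051 (without M1(2)) to 0.26 and to −0.018 with the covariate. Of 42 named genes that were called, 28 of 41 lost the call without M3(2), 37 of 42 without M1(2), 26 without M11 and none without M3. edgeR and DESeq2 were not run, since whole reads could not be recovered exactly from values rounded up. A read was worth 1.938 to 2.409 CP20M, so levels near that step rest on few reads.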

Other observations

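AY036118, Mir6236 and Lars2 had the largest positive log2 fold changes among genes that were not called, and were named after their values were seen. AY036118 was at 1578, 2667, 2118 and 14745 CP20M in M3, M3(2), M1(2) and M11 under R4 and at 11141, 7128, 18191 and 4708 under R4A1, higher in 3 lines and lower in M11. Its log2 fold change was 1.42 ± 0.63 (SE) with a limma adjusted p of 0.272. Lars2 and Mir6236 moved the same way in each line, at 0.93 and 1.08 on the log2 scale.

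Npr3, the clearance receptor of natriuretic peptides, had the smallest p for the difference between the effects of autogramin-2 with and without regorafenib. It went from 1332, 2509, 1779 and 895 CP20M in Ve to 1873, 2831, 2187 and 1525 in A1, and from 1588, 2337, 1615 and 1114 in R4 to 1392, 1954, 1354 and 931 in R4A1, up in 4 of 4 lines without regorafenib and down in 4 of 4 with it. The difference was −0.66 on the log2 scale and did not pass (limma adjusted p = 0.443).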
